A study of Arabidopsis thaliana with 9 samples.

Results

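The cellulose synthase family of Arabidopsis thaliana was taken as every gene whose deposited description holds the phrase cellulose synthase, with or without a hyphen, which gave 37 of the 33610 genes in the table. They comprise 10 CESA genes and 27 cellulose synthase-like (CSL) genes, of which 7 are CSLA, 6 CSLB, 4 CSLC, 6 CSLD and 4 CSLE or CSLG genes. CSLA9, CSLA15 and CSLC8 belong to the same family but are described in the table without that phrase, so they were not counted as members.

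Cellulose is spun out at the plasma membrane by complexes of CESA proteins, which join glucose into a beta-glucan chain. One set of CESA proteins serves the primary wall of growing cells and another the thick secondary wall of xylem vessels and fibres. Most CSL proteins work in the Golgi, where CSLA enzymes make the mannan backbone and CSLC enzymes the glucan backbone of xyloglucan, the main hemicellulose of leaf primary walls. CSLD proteins are known for walls laid down at growing tips and at new cell plates.

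Messenger RNA was measured in detached rosette leaves of 30-day-old plants, taken without infection and grown in 13 h of light and 11 h of darkness. The genotypes were VQ28OE9, an overexpression line of VQ28, VQ28KO12, a line labelled as its knock-out, and the wild type Col-0 (WT), with 3 libraries each and 1 line per altered genotype. VQ28 encodes a VQ motif protein, a class of plant cofactors that bind WRKY transcription factors, and the sources used here give neither the promoter behind the overexpression nor the way the knock-out was made. Sequencing followed poly(A) selection and a dUTP protocol that marks the strand. Nothing in the labels ties the replicates to separate plants, and p-values therefore describe the spread between these libraries alone, which may be technical.

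Library totals ran from 64552605 to 95223547 deposited count units, with 20510 to 20956 genes above 0. VQ28 stood at 6244, 4665 and 5942 FPKM (the authors' fragment count per gene, scaled by length and library) in VQ28OE9, at 8.36, 10.15 and 0 FPKM in the libraries labelled VQ28KO12 and at 8.70, 0.456 and 6.72 FPKM in WT. In exact two-sided permutation tests VQ28OE9 against WT gave p = 0.1, the smallest p that 3 against 3 allows, and the libraries labelled VQ28KO12 against WT gave p = 0.9, so VQ28 mRNA gave no check of the knock-out label, and VQ28KO12 is used below as the label of those libraries. WT replicate 3 and VQ28OE9 replicate 3 stood apart from the others on the second principal component of all genes, and AT2G01010, an 18S ribosomal RNA gene, had 122 units in WT replicate 3 while the other 8 libraries had 20000 or more. Without WT replicate 3, without VQ28OE9 replicate 3 or without both, the fold changes of 3 tested members, CSLA1, CSLA10 and CESA7, moved by over 1.5 times in some comparison, and these are given beside their results, as is CSLC4. The mesophyll markers RBCS1A, LHCB1.1 and CA1 summed to 13651 to 15297 FPKM in VQ28OE9, 16423 to 19289 in VQ28KO12 and 17766 to 20497 in WT, none of them called in any comparison, the flower gene AP1 was at 0 in all 9 libraries and AG reached at most 0.0576 FPKM. In whole leaves, fewer cells of a type and less RNA per cell cannot be told apart.

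Primary wall CESA genes had the highest summed FPKM of the subfamilies in every library. Over the 9 libraries they made up 59.8% of the summed FPKM of all members, CSLA genes 19.0%, CSLD genes 7.68%, CSLC genes 5.92%, CSLB genes 3.59%, CSLE and CSLG genes 2.29% and secondary wall CESA genes 1.71%. The shares differed between libraries, with primary wall CESA genes highest at 66.4% in VQ28OE9 replicate 1 and lowest at 49.2% in WT replicate 3. CSLA genes were lowest at 10.11% in VQ28OE9 replicate 1, below the CSLD genes at 11.7%, and highest at 30.5% in WT replicate 3. In VQ28OE9 replicate 1 the CSLA members summed to 37.7 FPKM and the CSLD members to 43.7. CSLA9, at 8.84 FPKM in that library, and CSLA15 are not in these sums. The order of CSLA and CSLD there therefore holds for the members alone, and with CSLA9 it would turn. The 37 members together summed to 400 ± 26.6 FPKM in VQ28OE9, 438 ± 46.9 in VQ28KO12 and 468 ± 68.8 in WT (SD, n = 3 each), and the means lay no farther apart than 1 SD of the WT libraries. Of the 37, 24 had a mean of at least 1 FPKM over the 9 libraries and were tested, 7 had counts but lay below that level, and 6 (CSLB1, CSLB2, CSLB5, CSLB6, CSLD4 and CSLD6) had no counts in any library. The tested members were 5 of 7 primary wall CESA, 3 of 3 secondary wall CESA, 7 of 7 CSLA, 2 of 6 CSLB, 3 of 4 CSLC, 2 of 6 CSLD and 2 of 4 CSLE and CSLG genes.

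**Figure D1:**
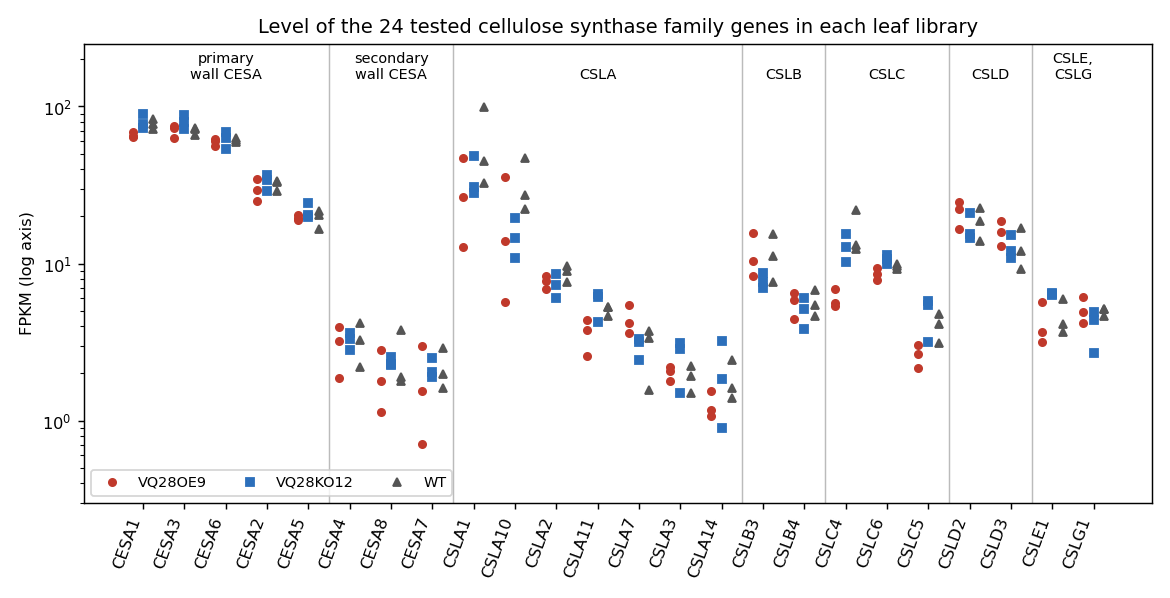
Level of each of the 24 tested family members in FPKM (log axis), one point per library with colours for VQ28OE9, VQ28KO12 and WT, members grouped by subfamily. CESA1, CESA3 and CESA6 lie highest with closely spaced points, CSLA1 and CSLA10 spread most widely, and the CSLC4 points of VQ28OE9, at 5.38 to 6.90 FPKM, lie below all the others of that gene.

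In VQ28OE9 against WT, 1 of the 24 tested members, CSLC4, fell and none rose (edgeR quasi-likelihood test, Benjamini-Hochberg adjusted p under 0.05), against 2.31% of the 16050 genes tested, or 0.935% for genes that fell. The median log2 fold change of the members was -0.14, with 19 of 24 negative, beside -0.0029 over all genes tested. This split of signs depended in part on WT replicate 3. Without that library CESA3, CESA4, CESA5, CESA8 and CSLB3 turned positive, and CSLA3 and CSLG1 turned negative. In VQ28OE9 against VQ28KO12, CSLC4 was again the 1 member called lower, against 6.33% of all genes (2.62% lower), and the median was -0.15, with 16 of 24 negative, beside -0.0071 over all genes. In VQ28KO12 against WT no member was called by edgeR, DESeq2 or limma, and none of the 24 had an unadjusted edgeR p under 0.05, against 5.03% of all genes. Over all 16050 genes that comparison called 1 gene (0.00623%) with edgeR, 39 (0.243%) with DESeq2 and 3 (0.0187%) with limma. Both comparisons against WT share the WT libraries, and likewise each other pair of comparisons has 1 genotype in common, so they are not independent of each other.

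**Figure D2:**
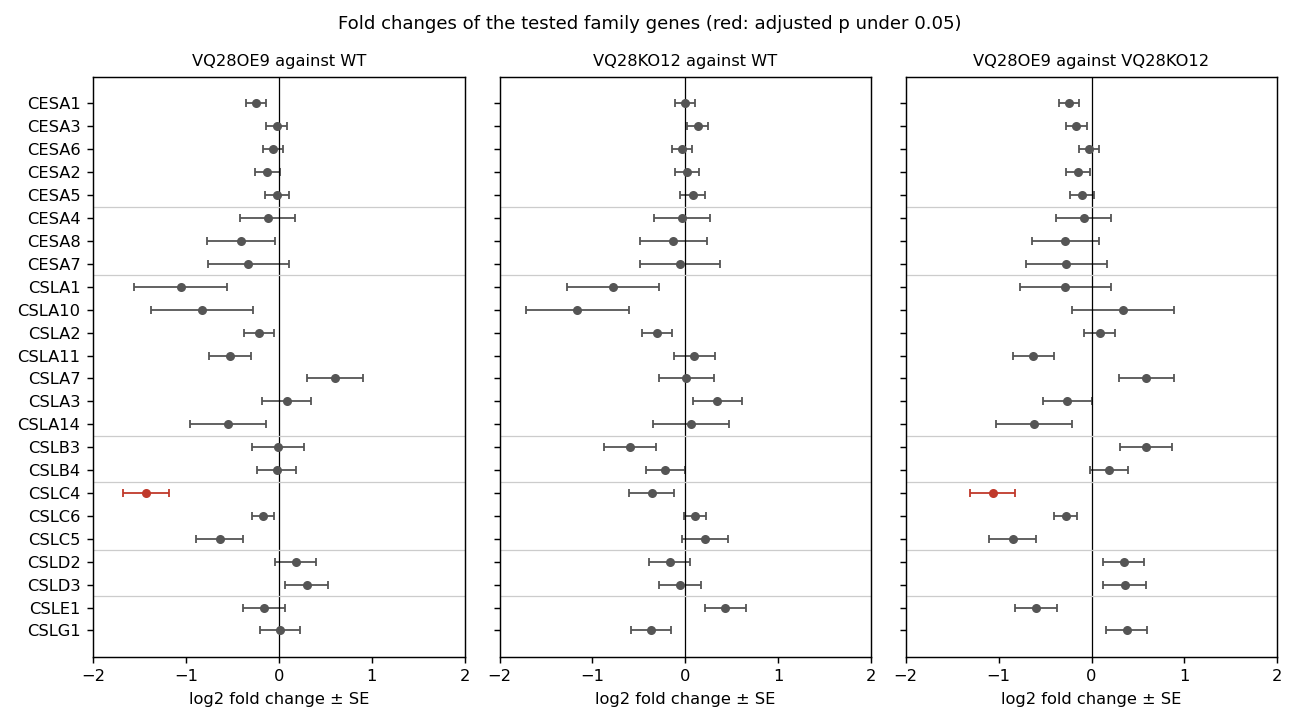
Fitted log2 fold change of each tested member, with its standard error as a bar, in VQ28OE9 against WT, VQ28KO12 against WT and VQ28OE9 against VQ28KO12. CSLC4 lies farthest left in both comparisons that involve VQ28OE9, at -1.43 and -1.07, and in VQ28KO12 against WT no member passed the test.

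CSLC4 encodes a glucan synthase that makes the backbone of xyloglucan, and it was the most highly expressed CSLC gene over all libraries (AT3G28180, chromosome 3, 10505829 to 10509239, plus strand, in the coordinates of the deposited table). It stood at 5.65, 5.38 and 6.90 FPKM in VQ28OE9, at 12.7, 15.4 and 10.3 FPKM in VQ28KO12 and at 12.3, 13.2 and 22.1 FPKM in WT. All 3 VQ28OE9 libraries lay below all 6 others, and the highest value was in WT replicate 3. The means were 5.98 ± 0.812 FPKM in VQ28OE9, 12.8 ± 2.54 in VQ28KO12 and 15.8 ± 5.41 in WT (SD, n = 3 each). Relative to WT, CSLC4 in VQ28OE9 fell by 1.43 ± 0.25 in log2 units (SE, edgeR adjusted p = 0.0245), and relative to the libraries labelled VQ28KO12 it fell by 1.07 ± 0.24 (edgeR adjusted p = 0.0328). In VQ28KO12 against WT its log2 fold change was -0.36 ± 0.24 (edgeR adjusted p = 1.00), with overlapping libraries. Without WT replicate 3 and VQ28OE9 replicate 3 the fall against WT was still called, at -1.23 on the log2 scale (edgeR adjusted p = 0.0455). The direction held in all 20 alternative fits, which could hardly turn it, since the VQ28OE9 libraries overlapped no others. The call held in 17 of 20 against WT and in 14 of 20 against VQ28KO12. These 20 include fits that left out a library of the genotype not compared, and a fit chosen after the data were seen. The call was lost against WT without VQ28OE9 replicate 1 (edgeR adjusted p = 0.0951), without VQ28OE9 replicate 2 (0.0749) and with only the 6 libraries compared in the fit (0.0517). Against VQ28KO12 it was lost on leaving out any 1 of the 6 libraries compared, with adjusted p between 0.0531 and 0.106.

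The other tested CSLC genes, CSLC5 and CSLC6, encode glucan synthases of the same subfamily. CSLC5 had 2.16, 3.05 and 2.65 FPKM in VQ28OE9, 5.42, 3.19 and 5.76 in VQ28KO12 and 4.11, 3.13 and 4.79 in WT. All VQ28OE9 libraries were below all others, but VQ28OE9 replicate 2 came close to replicate 2 of both other genotypes. Its log2 fold change was -0.64 ± 0.25 against WT (edgeR adjusted p = 0.222) and -0.85 ± 0.25 against VQ28KO12 (edgeR adjusted p = 0.0789), the second of which DESeq2 called (adjusted p = 0.0184), as it did 12.2% of all genes (5.3% lower), and edgeR called without VQ28KO12 replicate 2 (adjusted p = 0.0252). CSLC6 averaged 8.59 ± 0.714 FPKM in VQ28OE9, 10.6 ± 0.652 in VQ28KO12 and 9.55 ± 0.355 in WT (SD, n = 3 each) and was not called in any comparison. The 4 CSLC members summed to 18.7 ± 1.59 FPKM in VQ28OE9, 28.6 ± 1.67 in VQ28KO12 and 30.0 ± 6.32 in WT.

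Some of the 7 members with counts below the level filter are given here, singled out after their values were seen. Libraries did not overlap for CSLC12 and CSLD5 in VQ28OE9 against each other genotype, and for CESA9 and CSLG2 in VQ28KO12 against WT. How often this happens among all genes below the filter was not counted, so it is not read as a result about the members. CESA9 had 5, 0 and 21 units in VQ28KO12 and 26, 17 and 22 in WT, and CSLG2 had 0 units in all 3 VQ28KO12 libraries and 12, 12 and 4 in WT, so both were lower in every VQ28KO12 library by FPKM, at very low counts, and neither was called without the filter (edgeR adjusted p = 0.992 for both). CSLC12, the remaining CSLC member, stood at 1.86, 1.02 and 1.56 FPKM in VQ28OE9, at 0.538, 0.488 and 0.246 in VQ28KO12 and at 0.327, 0.664 and 0.825 in WT, so every VQ28OE9 library was higher. CSLD5, known for building the wall of new cell plates in dividing cells, stood at 0.423, 0.320 and 0.370 FPKM in VQ28OE9, at 0.836, 0.840 and 1.02 in VQ28KO12 and at 1.03, 0.714 and 1.39 in WT, so every VQ28OE9 library was lower. With the filter removed, 23317 genes were tested, of which 1.69% were called in VQ28OE9 against WT (0.678% lower and 1.01% higher) and 4.25% in VQ28OE9 against VQ28KO12 (1.75% lower and 2.5% higher). The calls were 2 and 3 of the 31 members tested there. With edgeR's own filterByExpr they were 2 and 3 of 30 members, beside 1.64% and 4.84% of 20080 genes. In the fit without a filter CSLD5 was called lower in VQ28OE9 against WT (-1.51 ± 0.29, edgeR adjusted p = 0.0283) and against VQ28KO12 (-1.25 ± 0.28, edgeR adjusted p = 0.0322). CSLC12 was called higher against VQ28KO12 (1.84 ± 0.41, edgeR adjusted p = 0.0297) and not against WT (1.27 ± 0.40, edgeR adjusted p = 0.160). Behind these values stood 97 to 118 units of CSLD5 in VQ28OE9, 214 to 381 in VQ28KO12 and 191 to 353 in WT, and 210 to 351 units of CSLC12 in VQ28OE9, 63 to 111 in VQ28KO12 and 62 to 143 in WT. The dividing cell markers CYCB1;1, CDKB2;1 and KNOLLE summed to 1.19 to 1.84 FPKM in VQ28OE9, 1.36 to 2.88 in VQ28KO12 and 2.27 to 3.02 in WT, none of the 3 was at 0 in all libraries and 1 passed the filter, with a log2 fold change of -0.90 in VQ28OE9 against WT (edgeR adjusted p = 0.169). Their part in the CSLD5 values was not tested.

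**Figure D3:**
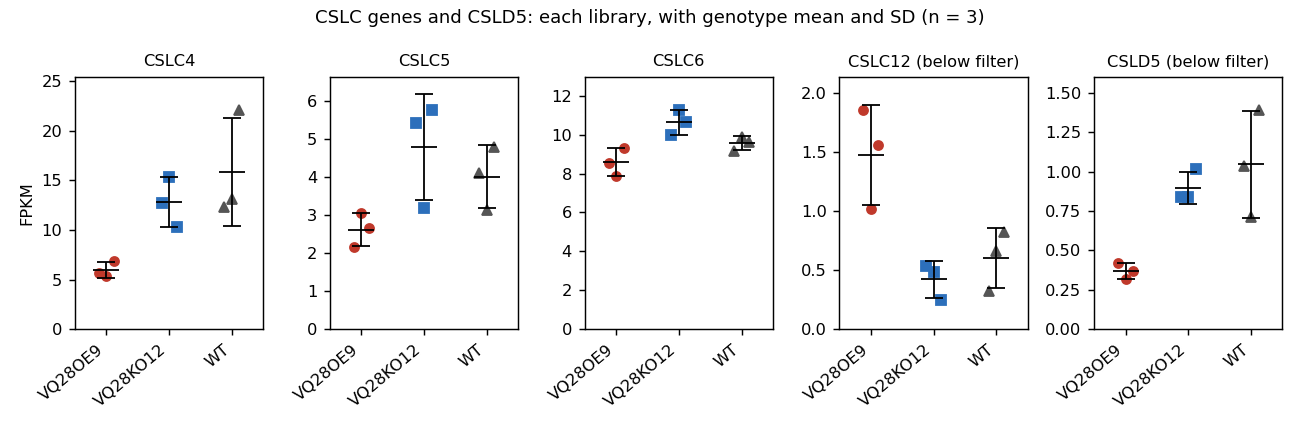
FPKM of CSLC4, CSLC5, CSLC6, CSLC12 and CSLD5 in each library of VQ28OE9, VQ28KO12 and WT, with the mean and SD of each genotype (n = 3), each panel on its own linear axis from 0. The VQ28OE9 points lie below all others for CSLC4, CSLC5 and CSLD5 and above all others for CSLC12, whose highest value was 1.86 FPKM.

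The 300 bases upstream of the RefSeq gene start (TAIR10.1) are shown for the 3 members of this group whose VQ28OE9 libraries differed most, because VQ proteins act with WRKY factors, whose W-box core TTGAC is in capitals where it occurs on either strand. The windows are CSLC4, chr3:10505411-10505710, plus strand, CSLC12, chr4:4805648-4805947, minus strand, and CSLD5, chr1:598658-598957, minus strand. No other annotated protein-coding gene lies in them, and other kinds of gene were not checked.
CSLC4: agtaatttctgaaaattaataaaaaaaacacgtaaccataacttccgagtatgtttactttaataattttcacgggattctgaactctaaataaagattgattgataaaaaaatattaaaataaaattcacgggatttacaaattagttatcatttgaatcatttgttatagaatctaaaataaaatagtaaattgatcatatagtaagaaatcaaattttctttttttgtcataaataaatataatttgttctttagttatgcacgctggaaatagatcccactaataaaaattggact
CSLC12: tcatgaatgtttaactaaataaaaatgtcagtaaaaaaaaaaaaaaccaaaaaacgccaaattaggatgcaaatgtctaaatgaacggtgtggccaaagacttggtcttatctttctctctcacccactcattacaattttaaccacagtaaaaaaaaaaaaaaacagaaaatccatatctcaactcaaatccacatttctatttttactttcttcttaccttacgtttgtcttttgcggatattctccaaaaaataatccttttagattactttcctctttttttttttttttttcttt
CSLD5: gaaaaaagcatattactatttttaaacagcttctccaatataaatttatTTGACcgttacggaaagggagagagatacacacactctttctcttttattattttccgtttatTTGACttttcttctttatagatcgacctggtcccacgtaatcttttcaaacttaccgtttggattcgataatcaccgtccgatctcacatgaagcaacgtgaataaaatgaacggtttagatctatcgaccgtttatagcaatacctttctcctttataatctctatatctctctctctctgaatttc
The CSLC4 and CSLC12 windows hold no TTGAC on either strand, and the CSLD5 window holds 2, at 251 and 188 bases before the start. Over all members, 19 of 37 windows (51.4%) hold it, beside 50.4% of the 27443 promoter windows of the same length of annotated protein-coding genes. All 6 CSLB windows hold it, the 3 secondary wall CESA windows hold none, and 2 of 7 primary wall CESA windows do. So do 5 of 7 CSLA, 2 of 4 CSLC, 3 of 6 CSLD and 1 of 4 CSLE and CSLG windows. Of the 6 CSLB genes, 4 had no counts in any library. The core ACGT of the G-box, searched on both strands, was in 48.6% of member windows beside 49% of all windows, and TGTCTC, the auxin response element, in 24.3% beside 13%. The pattern ACCNACC of secondary wall AC elements was in none of the 37 windows and in 7.08% of all windows. The motif TATAAA was in 56.8% of member windows beside 52.9% of all. A match here describes letters in a window and no binding was measured.

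Among the primary wall CESA genes, CESA1 and CESA3 are indispensable subunits and CESA6 with CESA2 and CESA5 fills the remaining places. CESA1 stood at 64.2, 69.2 and 64.8 FPKM in VQ28OE9, at 89.1, 77.4 and 72.9 in VQ28KO12 and at 71.8, 77.2 and 82.7 in WT. All VQ28OE9 libraries were below all others, by a small margin. The log2 fold change was -0.25 ± 0.11 against WT (edgeR adjusted p = 0.281) and -0.24 ± 0.11 against VQ28KO12 (edgeR adjusted p = 0.236), and -0.0042 ± 0.11 in VQ28KO12 against WT, so none was called. CESA3 averaged 70.1 ± 6.46 FPKM in VQ28OE9, 80.0 ± 8.25 in VQ28KO12 and 70.2 ± 3.77 in WT, and CESA6 averaged 59.4 ± 3.05 FPKM in VQ28OE9, 61.9 ± 7.84 in VQ28KO12 and 61.2 ± 1.69 in WT (SD, n = 3 each). CESA2 averaged 29.6 ± 4.77 FPKM in VQ28OE9, 33.3 ± 4.02 in VQ28KO12 and 31.8 ± 2.38 in WT, and CESA5 averaged 19.6 ± 0.766 FPKM in VQ28OE9, 21.5 ± 2.32 in VQ28KO12 and 19.6 ± 2.62 in WT. The genotypes overlapped in every one of these 4 genes. The log2 fold change of CESA3 was -0.03 ± 0.11 in VQ28OE9 against WT (edgeR adjusted p = 0.944), 0.14 ± 0.11 in VQ28KO12 against WT (1.00) and -0.16 ± 0.11 in VQ28OE9 against VQ28KO12 (0.462). That of CESA6 was -0.07 ± 0.11 in VQ28OE9 against WT (edgeR adjusted p = 0.830), -0.04 ± 0.11 in VQ28KO12 against WT (1.00) and -0.03 ± 0.11 in VQ28OE9 against VQ28KO12 (0.917). CESA9, known from seed coats, and CESA10 averaged below 0.1 FPKM in every genotype.

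Members whose libraries did not overlap in VQ28OE9 against WT were 4 of 24, all lower (CSLC4, CSLC5, CSLA11 and CESA1), beside 22.3% of all genes (9.24% lower and 13.0% higher). Against VQ28KO12 they were 6 of 24, beside 26.5% of all genes (14.4% lower and 12.1% higher), of which CSLC4, CSLC5, CSLC6, CSLE1 and CESA1 were lower and CSLA7 higher. In VQ28KO12 against WT they were 3 of 24, beside 10.8% of all genes, with CSLA10 lower and CSLE1 and CSLC6 higher. Of the members named here only CSLC4 passed the adjusted edgeR test.

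CESA4, CESA7 and CESA8 form the secondary wall complex of xylem, whose loss gives collapsed vessels. CESA4 stood at 1.86, 3.20 and 3.96 FPKM in VQ28OE9, at 3.33, 2.80 and 3.60 in VQ28KO12 and at 3.28, 2.19 and 4.18 in WT. CESA7 stood at 0.706, 1.55 and 2.98 FPKM in VQ28OE9, at 1.88, 2.05 and 2.51 in VQ28KO12 and at 1.98, 1.62 and 2.90 in WT. CESA8 stood at 1.14, 1.78 and 2.80 FPKM in VQ28OE9, at 2.25, 2.54 and 2.30 in VQ28KO12 and at 1.88, 1.79 and 3.801 in WT. In all 3 genes VQ28OE9 replicate 1 was lowest and the genotypes overlapped, and none was called. In VQ28OE9 against WT the log2 fold change was -0.12 ± 0.30 for CESA4, -0.33 ± 0.44 for CESA7 and -0.41 ± 0.36 for CESA8 (edgeR adjusted p = 0.893, 0.773 and 0.639). For VQ28KO12 against WT it was -0.04 ± 0.30 for CESA4, -0.06 ± 0.44 for CESA7 and -0.13 ± 0.36 for CESA8, each with an edgeR adjusted p of 1.00. In VQ28OE9 against VQ28KO12 it was -0.09 ± 0.30 for CESA4, -0.27 ± 0.44 for CESA7 and -0.28 ± 0.36 for CESA8 (edgeR adjusted p = 0.914, 0.779 and 0.719). Without VQ28OE9 replicate 3 that of CESA7 was -0.99 ± 0.36 in VQ28OE9 against WT (edgeR adjusted p = 0.204) and -0.93 ± 0.36 against VQ28KO12 (0.196). The xylem proteases XCP1 and XCP2, neither of which was at 0, summed to 21.2, 31.3 and 44.0 FPKM in VQ28OE9, to 36.0, 30.9 and 44.3 in VQ28KO12 and to 36.3, 28.1 and 51.9 in WT, lowest in the same library, and their part in the CESA values was not tested.

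The levels of the complex subunits were compared across the 9 libraries in 6 pairs, on log2(FPKM + 1), with exact two-sided permutation tests adjusted over the pairs. CESA4 and CESA7 gave r = 0.893 (permutation adjusted p = 0.00275) and rho = 0.833 (permutation adjusted p = 0.0248). CESA7 and CESA8 gave r = 0.910 (permutation adjusted p = 0.00275) and rho = 0.950 (permutation adjusted p = 0.00212), and CESA4 and CESA8 gave r = 0.825 (permutation adjusted p = 0.0103) and rho = 0.80 (permutation adjusted p = 0.0277). Of the primary wall pairs, CESA3 and CESA6 gave r = 0.763 (permutation adjusted p = 0.0313) and rho = 0.667 (permutation adjusted p = 0.0883). CESA1 and CESA3 gave r = 0.709 (permutation adjusted p = 0.0387) and rho = 0.567 (permutation adjusted p = 0.121), and CESA1 and CESA6 gave r = 0.661 (permutation adjusted p = 0.0501) and rho = 0.60 (permutation adjusted p = 0.116). Leaving out the 2 libraries farthest from the median gave r = 0.792, 0.656 and 0.870 for the secondary wall pairs CESA4 with CESA7, CESA4 with CESA8 and CESA7 with CESA8, and r = 0.627, 0.50 and 0.359 for CESA1 with CESA3, CESA1 with CESA6 and CESA3 with CESA6. In these 7 libraries CESA7 and CESA8 kept rho = 0.929 (exact permutation adjusted p = 0.0405), with 0.05 for r, and no other pair passed by r or rho. On deviations from the genotype means, permuted within genotypes, CESA4 and CESA7 gave r = 0.906 and CESA7 and CESA8 gave r = 0.895 (exact permutation adjusted p = 0.0417 for both). Of the primary wall pairs, CESA3 and CESA6 gave r = 0.904 and CESA1 and CESA3 gave r = 0.809, with the same exact permutation adjusted p of 0.0417. CESA1 and CESA6 gave r = 0.807 and did not pass (exact permutation adjusted p = 0.0611). CESA4 and CESA8 gave r = 0.836 and no longer passed (exact permutation adjusted p = 0.0926), nor did any pair by rho, with exact permutation adjusted p of 0.0694 for CESA4 with CESA7 and for CESA7 with CESA8. The 9 points come from 3 genotypes, and both genes of a pair share each library's depth.

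CSLA enzymes make mannan and glucomannan backbones. CSLA1, the most highly expressed of them, stood at 12.7, 26.5 and 46.8 FPKM in VQ28OE9, at 48.4, 30.7 and 28.1 in VQ28KO12 and at 32.7, 44.8 and 98.6 in WT. CSLA10 stood at 5.66, 13.9 and 35.5 FPKM in VQ28OE9, at 19.5, 14.6 and 10.9 in VQ28KO12 and at 22.3, 27.1 and 47.2 in WT. In both genes VQ28OE9 replicate 1 was lowest and WT replicate 3 highest, 7.79 times and 8.34 times the lowest for CSLA1 and CSLA10. Their SD on the log2 scale within genotypes was 0.74 for CSLA1 and 0.81 for CSLA10, at percentiles 98.8 and 99.1 of all genes tested, whereas the narrowest members, CSLC6 and CESA1, were at percentiles 4.39 and 11.5. The median within-genotype SD was 0.27 over the 24 members and 0.20 over all genes tested. CSLA1 had a log2 fold change of -1.06 ± 0.50 in VQ28OE9 against WT (edgeR adjusted p = 0.312), and CSLA10 of -1.16 ± 0.56 in VQ28KO12 against WT (edgeR adjusted p = 0.984), with every VQ28KO12 library below every WT library. CSLA1 in VQ28KO12 against WT gave -0.78 ± 0.49 (edgeR adjusted p = 1.00) and CSLA10 in VQ28OE9 against WT -0.83 ± 0.55 (edgeR adjusted p = 0.506), and against VQ28KO12 the VQ28OE9 values were -0.28 ± 0.49 for CSLA1 (edgeR adjusted p = 0.805) and 0.34 ± 0.55 for CSLA10 (edgeR adjusted p = 0.787). Without WT replicate 3, CSLA1 gave -0.44 ± 0.45 in VQ28OE9 against WT (edgeR adjusted p = 0.787) and -0.16 ± 0.45 in VQ28KO12 against WT (0.999). CSLA10 then gave -0.43 ± 0.58 in VQ28OE9 against WT (edgeR adjusted p = 0.863) and -0.77 ± 0.58 in VQ28KO12 against WT (0.951). Without VQ28OE9 replicate 3, CSLA10 gave -1.77 ± 0.44 in VQ28OE9 against WT (edgeR adjusted p = 0.0827), and against VQ28KO12 its sign turned, to -0.60 ± 0.42 (0.477). Neither gene was called in any of these fits.

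The promoter window of CSLA10, the member with the widest spread within genotypes, is shown with the same length and the same capitals (chr1:8519985-8520284, minus strand, TAIR10.1).
CSLA10: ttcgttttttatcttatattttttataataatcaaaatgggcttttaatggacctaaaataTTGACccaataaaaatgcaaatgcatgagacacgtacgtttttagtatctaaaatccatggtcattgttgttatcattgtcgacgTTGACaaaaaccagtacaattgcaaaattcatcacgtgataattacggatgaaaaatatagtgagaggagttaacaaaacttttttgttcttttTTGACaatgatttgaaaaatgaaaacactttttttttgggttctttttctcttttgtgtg
The CSLA10 window holds 3 copies of TTGAC, counting either strand, at 239, 154 and 60 bases before the start, and also 1 TGTCTC and 4 ACGT.

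CSLA11 stood at 3.78, 4.35 and 2.58 FPKM in VQ28OE9, at 6.45, 4.22 and 6.09 in VQ28KO12 and at 4.61, 5.28 and 5.27 in WT, with log2 fold changes of -0.53 ± 0.22 against WT (edgeR adjusted p = 0.261) and -0.63 ± 0.22 against VQ28KO12 (edgeR adjusted p = 0.140). CSLA7, known from embryo development and pollen tube growth, stood at 5.43, 4.17 and 3.64 FPKM in VQ28OE9, at 3.17, 2.44 and 3.32 in VQ28KO12 and at 3.71, 3.34 and 1.57 in WT, with every VQ28OE9 library above every VQ28KO12 library. Its log2 fold change was 0.60 ± 0.30 against WT (edgeR adjusted p = 0.342) and 0.59 ± 0.30 against VQ28KO12 (edgeR adjusted p = 0.295). CSLA2, which makes seed mucilage glucomannan, averaged 7.66 ± 0.737 FPKM in VQ28OE9, 7.32 ± 1.23 in VQ28KO12 and 8.77 ± 1.01 in WT. CSLA3 and CSLA14 averaged between 1.26 and 2.49 FPKM in every genotype, with overlapping libraries. The 7 CSLA members had a median log2 fold change of -0.53 in VQ28OE9 against WT, 5 of 7 negative, and none was called. Without WT replicate 3 all 7 of these fold changes were smaller in size, with CSLA11 at -0.49, CSLA1 at -0.44, CSLA10 at -0.43 and CSLA14 at -0.27. These counts leave out CSLA9 and CSLA15, which are not members by the description rule. CSLA15 was called lower in VQ28OE9 against WT, and both genes are given under Other observations.

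**Figure D4:**
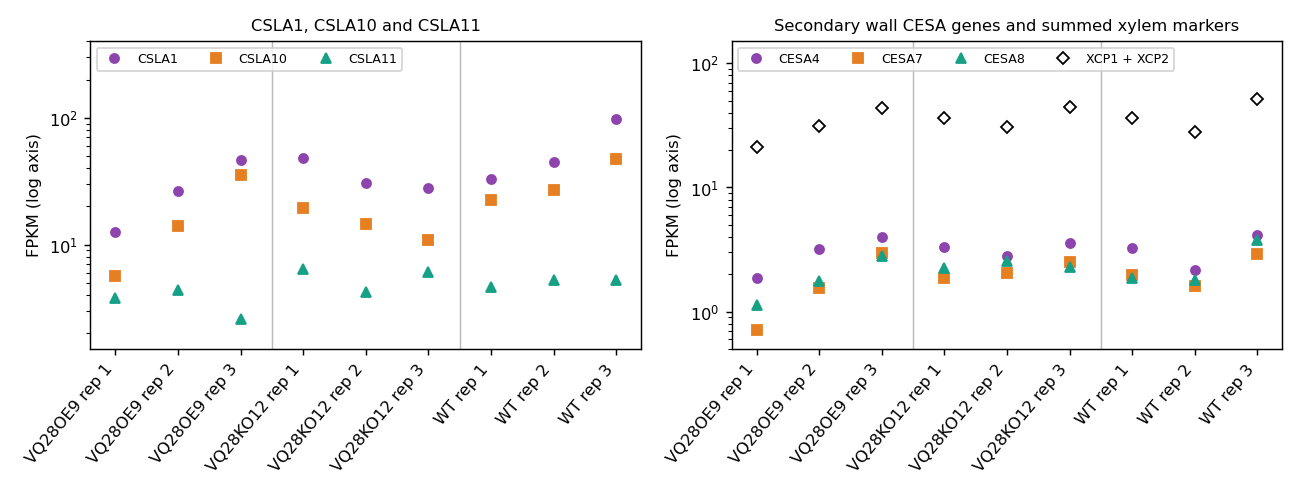
FPKM (log axis) by library, with VQ28OE9, VQ28KO12 and WT libraries from left to right, for CSLA1, CSLA10 and CSLA11 in the left panel and for CESA4, CESA7, CESA8 and the summed xylem markers XCP1 and XCP2 in the right panel. CSLA1 spans 12.7 to 98.6 FPKM, and VQ28OE9 replicate 1 is lowest for CSLA1, CSLA10 and the secondary wall genes.

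CSLD2 and CSLD3, known for root hair growth, were the only CSLD genes above the filter. CSLD2 stood at 24.5, 16.6 and 22.2 FPKM in VQ28OE9, at 15.5, 21.1 and 14.4 in VQ28KO12 and at 13.97, 22.7 and 18.7 in WT. CSLD3 stood at 18.7, 13.0 and 15.95 FPKM in VQ28OE9, at 12.1, 15.2 and 10.8 in VQ28KO12 and at 9.26, 16.9 and 12.1 in WT. Within each genotype the 2 genes ran in the same order of libraries, and neither was called in any comparison, with log2 fold changes of 0.18 ± 0.22 for CSLD2 and 0.30 ± 0.23 for CSLD3 in VQ28OE9 against WT (edgeR adjusted p = 0.760 and 0.575). For CSLD2 the value was -0.17 ± 0.22 in VQ28KO12 against WT (edgeR adjusted p = 1.00) and 0.35 ± 0.22 in VQ28OE9 against VQ28KO12 (edgeR adjusted p = 0.428). CSLD1, known from pollen, averaged below 0.1 FPKM in every genotype.

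CSLB3 stood at 8.35, 10.4 and 15.6 FPKM in VQ28OE9, at 8.73, 7.68 and 7.03 in VQ28KO12 and at 11.1, 7.59 and 15.3 in WT, and had a log2 fold change of -0.59 ± 0.28 in VQ28KO12 against WT (edgeR adjusted p = 0.984). CSLB4 averaged 5.62 ± 1.05 FPKM in VQ28OE9, 5.01 ± 1.12 in VQ28KO12 and 5.63 ± 1.08 in WT. CSLE1 stood at 3.18, 5.66 and 3.69 FPKM in VQ28OE9, at 6.45, 6.33 and 6.40 in VQ28KO12 and at 5.95, 3.68 and 4.14 in WT, so all VQ28KO12 libraries were above all others, with a log2 fold change of 0.43 ± 0.22 against WT (edgeR adjusted p = 0.987). CSLG1 averaged 5.10 ± 0.983 FPKM in VQ28OE9, 3.99 ± 1.16 in VQ28KO12 and 4.99 ± 0.30 in WT, and CSLG2 and CSLG3 averaged at most 0.240 FPKM in every genotype. Some of these levels may be shared with other genes. Coding sequences of CSLB5 and CSLB6 share an identical run of 248 bases, longer than the 150-base reads, but neither gene had counts in any library. No other member shared an identical coding run of 100 bases or more with a family gene. CSLB3 and CSLB4 share at most 88 bases at 88.8% identity and CSLD2 and CSLD3 at most 53 at 83.1%. CSLE1 overlaps AT1G55860 by 17 bases, CSLG1 overlaps AT4G24015 by 103, CESA7 overlaps AT5G17410 by 66, CESA4 overlaps AT5G44040 by 65 and CESA8 overlaps AT4G18770 by 481, and since it is not given whether counting used the strand, their levels are uncertain to that extent.

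Genes that work with the family were followed in lists. None of the 10 tested cellulose synthesis partners of 12 listed was called in any comparison, with 9 of 10 negative in VQ28OE9 against WT (median log2 fold change -0.24) and 9 of 10 against VQ28KO12 (median -0.33). The smallest p among them were those of CC2, a companion of cellulose synthase at microtubules (-0.64 against WT, edgeR adjusted p = 0.0870), and of CSI1, which links the complex to microtubules (-0.43 against VQ28KO12, edgeR adjusted p = 0.0669). For VQ28KO12 against WT it was KOR1, the endoglucanase of the complex (0.19, edgeR adjusted p = 0.997). None of the 7 tested of 8 xyloglucan partners of CSLC was called, with MUR3, a galactosyltransferase of xyloglucan side chains, at 0.45 in VQ28OE9 against WT (edgeR adjusted p = 0.130) and XLT2, another, at -0.50 in VQ28OE9 against VQ28KO12 (edgeR adjusted p = 0.224) and 0.49 in VQ28KO12 against WT (edgeR adjusted p = 0.982). Of 4 mannan partners, VTC1, which makes the GDP-mannose that CSLA enzymes use, was 352 ± 7.69 FPKM in VQ28OE9, 492 ± 50.4 in VQ28KO12 and 425 ± 13.2 in WT. It fell in VQ28OE9 against the libraries labelled VQ28KO12 (-0.46 ± 0.11, edgeR adjusted p = 0.0369), was not called against WT (-0.29, edgeR adjusted p = 0.193) and in VQ28KO12 against WT gave 0.17 (edgeR adjusted p = 1.00).

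None of the 10 tested of 11 xylan and lignin genes of the secondary wall, the 1 tested of 7 regulators or the 8 tested of 11 callose synthases was called in any comparison. The smallest p of each were PARVUS at -0.35 (edgeR adjusted p = 0.359), VND6, a master regulator of vessel walls, at -1.12 (0.238), and GSL10 at 0.33 (0.526) in VQ28OE9 against WT. In VQ28OE9 against VQ28KO12 they were FRA8 at 0.87 (0.485), VND6 at -0.98 (0.254) and GSL8 at 0.29 (0.504), and in VQ28KO12 against WT IRX9 at -0.54, VND6 at -0.14 and GSL1 at -0.23, each with an edgeR adjusted p of 1.00. Among markers of other leaf cells, epidermal genes summed to 90.1 to 105 FPKM in VQ28OE9, 130 to 157 in VQ28KO12 and 108 to 132 in WT, and 1 of the 3, ATML1, a regulator of epidermal identity, fell in VQ28OE9 against WT (-1.21, edgeR adjusted p = 0.0130) and against VQ28KO12 (-1.69, edgeR adjusted p = 0.00387). Guard cell genes summed to 15.7 to 20.4 FPKM in VQ28OE9, 12.3 to 14.7 in VQ28KO12 and 8.78 to 10.11 in WT, and 2 of the 3, HT1 and FAMA, rose in VQ28OE9 against WT (1.22 and 0.80, edgeR adjusted p = 0.0307 and 0.0406). That comparison called 1.37% of all tested genes higher. No guard cell gene was called in the other 2 comparisons. All 3 were nonetheless higher in every VQ28KO12 library than in every WT library, with log2 fold changes of 0.40 to 0.73. Phloem genes summed to 215 to 266 FPKM in VQ28OE9, 188 to 226 in VQ28KO12 and 213 to 243 in WT, with neither of 2 called. The trichome gene GL2, below the filter, stood at 0.390 to 0.512 FPKM in VQ28OE9, 0.196 to 0.641 in VQ28KO12 and 0.258 to 0.583 in WT. No mesophyll, epidermal, guard cell or phloem marker was at 0 in all libraries, and their part in the CSLC4 values was not tested.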

How the data were processed

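The authors deposited 1 table of FPKM values and whole-number estimated counts per gene and library, per the file headers. The table came with aligner, counter, genome build and strand use in counting not given in the sources used here. Low values among the deposited estimated counts pile up at multiples of 4, so intervals on single counts are not given. A gene's level is given as the deposited FPKM. Library totals and the number of genes above 0 set the depth, and low genes carry the larger error.

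Coordinates of genes are those of the table. Promoter windows of 300 bases and coding sequences came from RefSeq TAIR10.1 by locus tag, matched for 37 of 37 members. Of 28932 matched genes, 50.75% share at least 1 end exactly with the table, so table and RefSeq coordinates were not mixed.

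The 16050 genes that averaged 1 FPKM or more were tested on the estimated counts as deposited, with edgeR 4.0.16 (R 4.3.3, quasi-likelihood test, TMM factors, all 9 libraries, 1 mean per genotype), two-sided, with Benjamini-Hochberg adjustment over all of them and a threshold of 0.05. The planned rule put edgeR ahead of limma where per-library counts were present. Alternatives were limma 3.58.1, DESeq2 1.42.0, RLE and upper-quartile factors, other filters, the counts divided by 4, the 6 libraries compared, the replicate block, and leaving out libraries. Limma was run on log2(FPKM + 1) and on log2(FPKM + 0.1), not on the counts. Single values and correlations were tested by exact permutation (scipy 1.17.1). Steps were tested on simulated data. In counts drawn with the means, library sizes and spread of these data, edgeR called 42% to 52% of 2-fold changes in the 3 comparisons. It called 91% to 95% of 4-fold changes. A member that was not called may therefore still have changed.

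Full statistics were given for members past the threshold, the 3 of smallest p in each comparison, CESA1, CESA3, CESA6, CESA4, CESA7 and CESA8, and the highest of each subfamily. The members, lists and this rule were chosen with earlier results of these data known. AT4G20000 was used as VQ28, following the family's published numbering. The promoter window of CSLA1 is not reported here.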

Additional observations from a re-analysis of the deposited data

How the results depend on the processing

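The direction of CSLC4 held in every alternative, which could hardly turn it, since its VQ28OE9 libraries overlapped no others. The number of members changed in VQ28OE9 against WT was 2 of 31 with no filter (1.69% of all genes), 2 of 30 with filterByExpr (1.64%), 0 of 24 with only the 6 libraries compared (1.02%), and 0 to 1 of 24 when a replicate was left out (0.287% to 2.1%). In VQ28OE9 against VQ28KO12 it was 2 of 24 with DESeq2 (12.2%), 3 of 31 with no filter (4.25%), 3 of 30 with filterByExpr (4.84%), and 0 to 1 of 24 when a replicate was left out (0.816% to 7.73%). All genes changed in VQ28OE9 against WT numbered 1358 with DESeq2, 163 with only the 6 libraries, 94 without WT replicate 3 and VQ28OE9 replicate 3 (an alternative chosen after seeing the data) and 46 to 337 when a replicate was left out. In VQ28KO12 against WT they numbered 3 with limma, 39 with DESeq2, 2 with no filter, 3 with the counts divided by 4, 2 with only the 6 libraries and 1 to 4 when a replicate was left out, and in VQ28OE9 against VQ28KO12 1957 with DESeq2 and 131 to 1241 when a replicate was left out. The cause was not tested.

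Correlations with the 2 libraries farthest from the median left out were r = 0.792 for CESA4 and CESA7, 0.656 for CESA4 and CESA8, 0.870 for CESA7 and CESA8, 0.627 for CESA1 and CESA3 and 0.359 for CESA3 and CESA6, all past the threshold before. On log2 CPM no primary wall pair passed. There CESA1 and CESA3 gave r = 0.643 and CESA3 and CESA6 gave 0.632, with both calls lost (exact permutation adjusted p = 0.0780 for both). On plain FPKM CESA1 and CESA6 gave 0.695 and passed (exact permutation adjusted p = 0.037). On deviations from genotype means CESA4 and CESA8 gave 0.836 with the call lost (exact permutation adjusted p = 0.0926). Not every same-numbered pair of libraries deviated together (4 of 9 pairs over r = 0.1, from -0.199 to 0.309), so the numbers were not taken as pairs. With the replicate number as a block, 468 genes changed in VQ28OE9 against WT, 1 in VQ28KO12 against WT and 1055 in VQ28OE9 against VQ28KO12, and 1, 0 and 1 of 24 members.

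Of 760 alternatives for named members, 705 kept direction and call, 9 lost a call, 2 gained one (CSLC5 against VQ28KO12) and 44 reversed, all among fold changes that were not called. All 9 lost calls were of CSLC4, the only member called in the main fit. The 705 include fold changes that were never called. They also include fits without a library of the genotype not compared, which left fold changes almost unmoved. In VQ28OE9 against WT, leaving out a replicate gave log2 values of -0.082 to 0.036 for CESA3, -0.39 to 0.13 for CESA4, -0.99 to 0.041 for CESA7, -0.82 to 0.045 for CESA8, -0.41 to 0.055 for CSLE1 and -0.31 to 0.28 for CSLB3, and CSLB3 gave 0.020 and 0.023 with limma and 0.0027 with the block. In VQ28KO12 against WT it gave -0.068 to 0.059 for CESA1, -0.10 to 0.032 for CESA6, -0.25 to 0.21 for CESA4, -0.23 to 0.23 for CESA7, -0.32 to 0.33 for CESA8 and -0.35 to 0.0036 for CSLD2. There limma gave 0.043 and 0.044 for CESA1, 0.0080 for CESA6, 0.032 and 0.050 for CESA4, 0.0072 and 0.018 for CESA7 and 0.0096 for CESA8, and upper-quartile factors gave 0.015 for CESA1. The median of all genes in VQ28KO12 against WT was itself 0.0424 with limma on log2(FPKM + 1). It was 0.0204 with upper-quartile factors and 0.00127 in the main fit, so these turns of sign are of the size of a shift in scaling. In VQ28OE9 against VQ28KO12, leaving out a replicate gave -0.10 to 0.036 for CESA6, -0.36 to 0.16 for CESA4, -0.93 to 0.097 for CESA7 and -0.86 to 0.071 for CSLA1. Without both WT replicate 3 and VQ28OE9 replicate 3, CESA3 gave 0.078 in VQ28OE9 against WT, CESA1 0.052, CESA4 0.21, CESA7 0.22 and CESA8 0.32 in VQ28KO12 against WT, and CESA6 0.0054 in VQ28OE9 against VQ28KO12. Low members are limited by depth.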

Other observations

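XXT1, a xylosyltransferase that adds the first side chains to the CSLC glucan, stood at 22.3, 17.3 and 18.2 FPKM in VQ28OE9, at 18.1, 2.85 and 16.1 in VQ28KO12 and at 17.2, 1.99 and 18.4 in WT. It was singled out after its values were seen. Replicate 2 of VQ28KO12 and of WT lay far below the other libraries, while XXT2, which adds the same sugar, stayed between 25.7 and 30.8 FPKM in all 9. Of the CSLA genes described without the phrase cellulose synthase, CSLA15 stood at 0.358, 1.29 and 1.88 FPKM in VQ28OE9, at 14.6, 12.1 and 5.88 in VQ28KO12 and at 9.78, 14.7 and 23.0 in WT, and CSLA9 at 8.84, 13.5 and 16.2 in VQ28OE9, at 21.0, 15.3 and 20.3 in VQ28KO12 and at 20.0, 17.9 and 23.8 in WT. CSLA15 fell in VQ28OE9 against WT (-3.77 ± 0.58, edgeR adjusted p = 0.0177) and CSLA9 was not called (-0.70 ± 0.22, edgeR adjusted p = 0.130). In VQ28KO12 against WT neither gene was called, at -0.61 for CSLA15 and -0.17 for CSLA9.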
